A study of Mus musculus with 8 samples.

Results

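Prostaglandin synthesis and reception were followed through 10 genes in whole brain of mice lacking the deacetylase SIRT1 in the brain. The genes were chosen by name: the cyclooxygenases Ptgs1 and Ptgs2, the terminal synthases Ptgds, Ptges and Ptgis, the receptors Ptger1, Ptger3, Ptger4 and Ptgfr, and the degrading enzyme Hpgd. Every probe set whose single platform gene symbol was one of them was taken, which gave 17 of the 22626 tested probe sets and 9 of the 10 genes. Ptgs1 has no such probe set in the annotation used and was not analysed here. Whole-brain RNA of SIRT1 brain-specific knockout mice (BSKO, 4 arrays) was set against that of wild-type littermates (WT, 4 arrays), each array a biological replicate. The mice were males at 3 months of age with the strain label C57/B6, and the arrays were Affymetrix Mouse430A_2, which read 1 colour. The promoter used to delete SIRT1, and the part of the gene deleted, are not given in the sources used here.

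Prostaglandins are lipid signals made from arachidonic acid, which phospholipases and lipases release from membranes. A cyclooxygenase turns it into prostaglandin H2, terminal synthases convert that into the D, E, F and prostacyclin forms, and each form acts on its own G protein-coupled receptors before a dehydrogenase inactivates it. In brain Ptgs2 is present in excitatory neurons of cortex and hippocampus, where synaptic activity induces it, while Ptgds is a product of meninges, choroid plexus and oligodendrocytes.

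The upstream bases of Ptgs2 are shown because this gene had the change that brought the pathway into view, and those of Ptgfr because 1 of the 3 probe sets of that receptor gene had nearly the same pattern over the arrays. The sequences are RefSeq's, build GRCm38.p6, and 8 of the 10 genes had an entry. The 250 bases before the annotated Ptgs2 start lie at chr1:150099781-150100030 on the plus strand, with a palindrome of the type bound by C/EBP factors, TTGCGCAA, in capitals. The next sequence is the 30 bases at chr1:150100034-150100063, plus strand, with an overlapping CRE core (TGACG on the other strand) and E-box (CACGTG) in capitals. The last is the 250 bases before the annotated Ptgfr start, at chr3:151837529-151837778 on the minus strand, with no capitals.
Ptgs2 upstream: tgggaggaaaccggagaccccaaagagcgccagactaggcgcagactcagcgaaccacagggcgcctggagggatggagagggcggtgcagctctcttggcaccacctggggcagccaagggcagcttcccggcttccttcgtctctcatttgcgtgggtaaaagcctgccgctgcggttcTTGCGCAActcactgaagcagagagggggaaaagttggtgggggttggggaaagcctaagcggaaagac
Ptgs2 CRE and E-box: gtcaccactaCGTCACGTGgagtccgcttt
Ptgfr upstream: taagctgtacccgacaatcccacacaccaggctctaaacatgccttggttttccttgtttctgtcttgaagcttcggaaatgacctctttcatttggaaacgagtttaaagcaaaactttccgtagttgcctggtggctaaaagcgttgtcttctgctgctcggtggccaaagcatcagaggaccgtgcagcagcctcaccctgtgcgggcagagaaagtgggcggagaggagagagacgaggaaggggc

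On both strands of the 300-base windows (250 bases before to 50 after a start), the C/EBP-type palindrome was found in 0.183% of the 32851 windows in the table, the CRE core in 20.8% and the E-box in 7.15%. Of the genes with an entry, Ptgs2 was the one that held these 3 motifs, the palindrome at bases -69 to -62 and the others between bases 14 and 22 after the annotated start. The AP-1 site TGACTCA, present in 5.20% of windows, was found for Ptgds at bases -35 to -29. These are matches of letters, and no binding was measured.

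The deposited values are log2 values centred on the median of each probe set over the 8 arrays, so a value says how far an array lies from the middle of the 8 and gives no level. Markers of brain cells can therefore not be checked for presence, and the levels of the 9 genes cannot be compared with each other. One array stood apart. On BSKO 2 the SD over all tested probe sets was 0.831, against at most 0.314 on the other 7. For the control genes, the centred 5' value minus the centred 3' value was -2.44 (beta-actin) and -2.43 (Gapdh) log2 units on BSKO 2. It was -0.10 to 0.49 on the others. This difference sets an array against the middle of the 8 and does not compare the 5' and 3' levels themselves. Sirt1 itself had values of 0.08, -1.46, -0.20 and -0.06 on BSKO 1 to 4 and 0.00, 0.00, 0.08 and 0.29 on WT 1 to 4, and the genotypes overlapped. The Sirt1 difference was -0.50 (SE 0.31) with 8 arrays and -0.15 (SE 0.10) without BSKO 2. For each of the 17 probe sets the difference is given with 8 arrays and without BSKO 2.

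Of the 17 probe sets, 15 had a lower mean in BSKO than in WT brain. The probe sets of Ptgs2, 1 of the 3 of Ptgfr, both of Ptger4, both of Ptgds, 1 of 2 of Ptger3 and 1 of 2 of Hpgd had no overlap between the genotypes, with BSKO the lower. These were 9 probe sets of 6 genes, and 0 had BSKO the higher without overlap. Over all tested probe sets the groups failed to overlap with BSKO lower in 6.66%, with BSKO higher in 5.67%, and the mean difference was below 0 in 46.5%. The median difference was -0.26 for the 17 probe sets and 0.02 for all tested ones. Without BSKO 2 it was -0.39 for the 17 and 0.01 for all. Then 14 of the 17 were lower (all tested, 47.8%), 9 did not overlap with BSKO lower (all tested, 10.3%) and 0 with BSKO higher (all tested, 9.21%). In the limma fit over all probe sets, with Benjamini-Hochberg adjustment and a threshold of 0.05, 1 of the 17 passed with 8 arrays, as lower in BSKO, against 0.0309% of all tested probe sets in either direction and 0.0221% as lower. At an unadjusted p under 0.05, 7 were lower, against 5.22% of all. Without BSKO 2, 2 passed as lower, against 1.63% of all in either direction and 1.14% as lower. The pathway was picked with results of this same comparison known, Ptgs2 above all, so these shares are a description and the adjusted p values below show where a probe set stands in the fit over all.

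**Figure D1:**
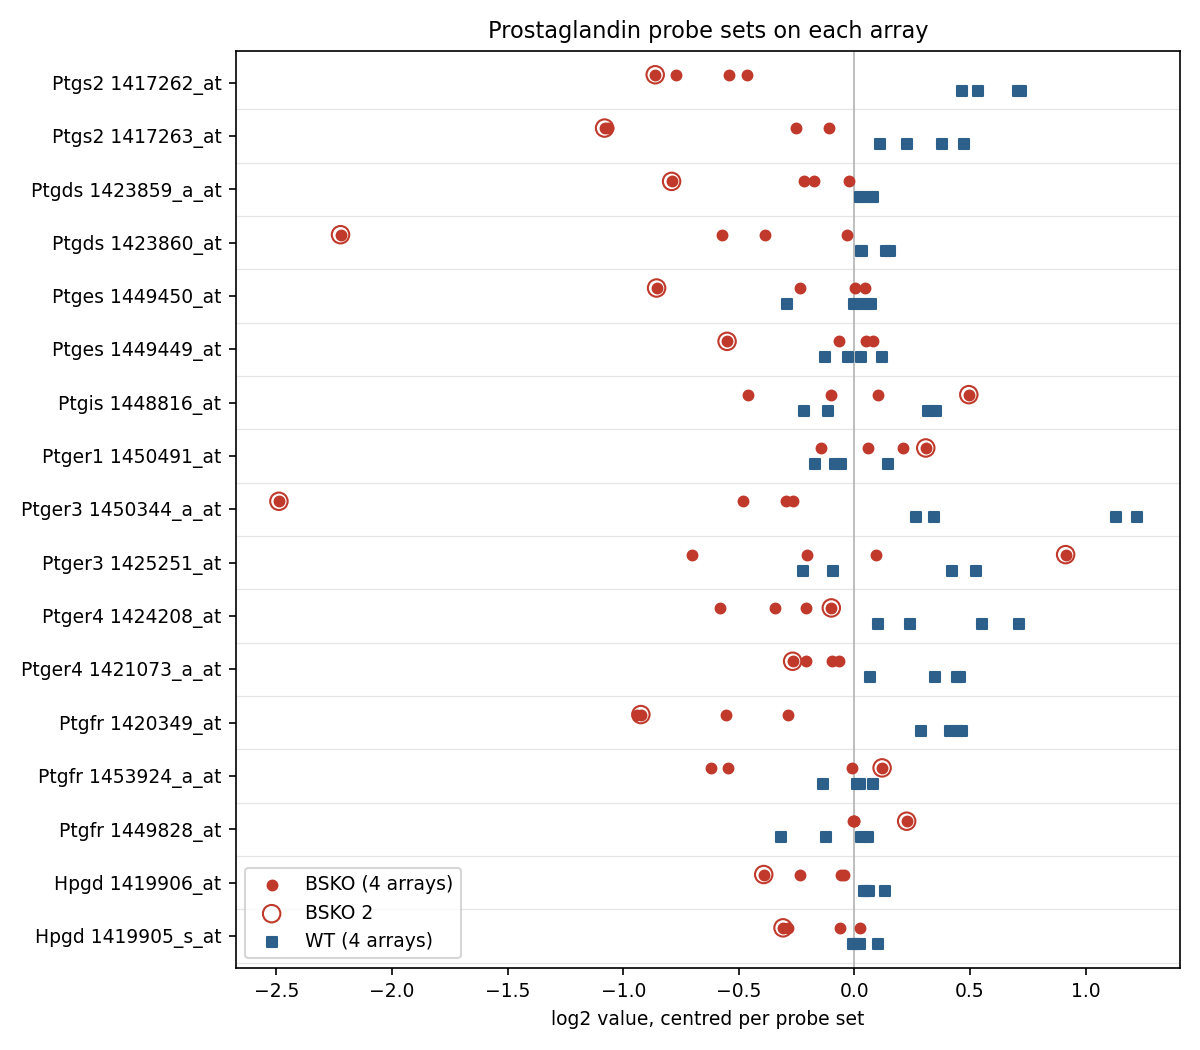
Values of the 17 prostaglandin probe sets on each array (horizontal axis, log2, centred per probe set). Circles are the 4 BSKO arrays, with BSKO 2 ringed, and squares the 4 WT arrays; for 9 probe sets every circle lies to the left of every square.

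Ptgs2, the inducible cyclooxygenase, fell 2.41-fold in BSKO brain on probe set 1417262_at. The values on this probe set were -0.77, -0.86, -0.47 and -0.54 on BSKO 1 to 4, against 0.47, 0.53, 0.71 and 0.72 on WT 1 to 4. All 4 BSKO arrays lay together and well below the WT arrays, and the gap between the highest BSKO and the lowest WT array (0.931) was larger than the whole range within either genotype. The means were -0.66 ± 0.19 in BSKO and 0.61 ± 0.13 in WT (SD, n = 4 each), a log2 difference of -1.27 (SE 0.12, limma adjusted p = 0.0208). The difference was -1.32 between BSKO 1 and 2 and WT 1 and 2, and -1.22 between BSKO 3 and 4 and WT 3 and 4. In bulk tissue, fewer cells of a type and less RNA per cell cannot be told apart, here and for the other genes.

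The second Ptgs2 probe set, 1417263_at, was also lower on every BSKO array but was spread more widely among them. Its values were -1.07, -1.08, -0.11 and -0.25 on BSKO 1 to 4, against 0.47, 0.11, 0.23 and 0.38 on WT 1 to 4. BSKO 1 and 2 were far below the WT arrays, whereas BSKO 3 lay only 0.219 below WT 2. The difference of -0.92 (SE 0.24, 95% interval -1.47 to -0.37) did not pass over all probe sets (limma adjusted p = 0.259), and was -0.77 (SE 0.22, limma adjusted p = 0.119) without BSKO 2. With 8 arrays, replicates 1 and 2 alone gave -1.36, and replicates 3 and 4 alone -0.48. The value of 1417262_at minus that of 1417263_at was 0.29 and 0.22 on BSKO 1 and 2 but -0.36 and -0.29 on BSKO 3 and 4. On the WT arrays it was -0.01, 0.42, 0.48 and 0.34. The probe sets thus gave the same direction and ranked the BSKO arrays in the same pairs, with unequal distance between the pairs.

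**Figure D2:**
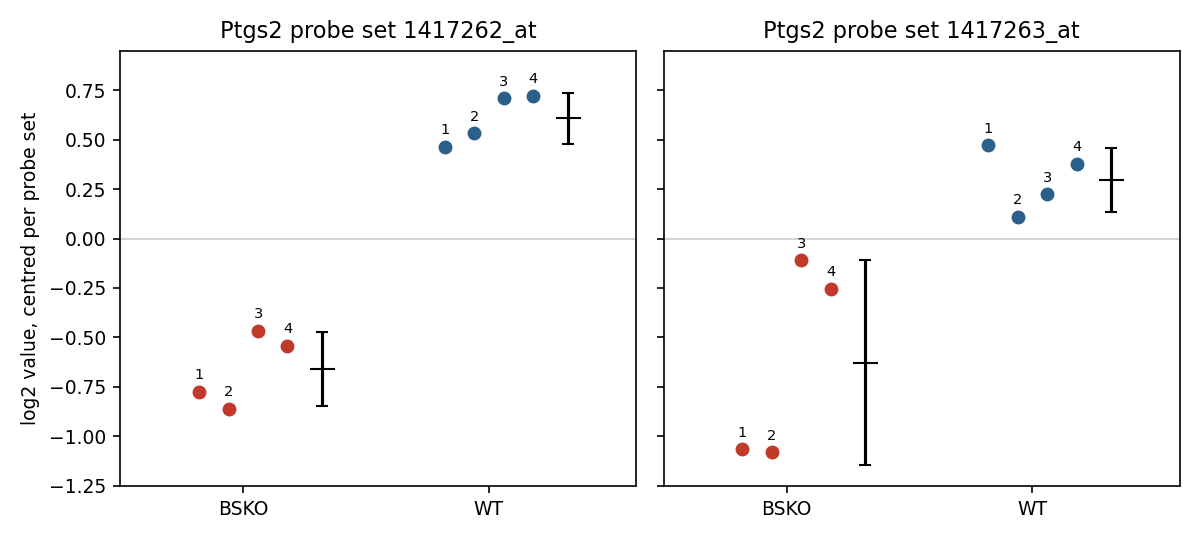
Ptgs2 on its 2 probe sets (vertical axis, log2, centred per probe set; numbers are the replicates, black bars the mean and SD of 4 arrays). On 1417262_at the BSKO arrays lie between -0.86 and -0.47, while on 1417263_at BSKO 3 and 4 lie at -0.11 and -0.25, close to the lowest WT array at 0.11.

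The call on 1417262_at did not hold in every set of 7 arrays. It held without BSKO 2 (-1.20, limma adjusted p = 0.00791) and without BSKO 4 (-1.31, limma adjusted p = 0.0471). Without BSKO 1, BSKO 3 or any WT array, the limma adjusted p was between 0.0689 and 0.147, with differences from -1.33 to -1.23. As the mean of its probe sets Ptgs2 differed by -1.10 (SE 0.17, limma adjusted p = 0.0732).

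Among the terminal synthases, Ptgds, which makes prostaglandin D2 and is abundant in cerebrospinal fluid, was lower on both probe sets, by less without BSKO 2. Probe set 1423860_at had -0.57, -2.22, -0.39 and -0.03 on BSKO 1 to 4, against 0.14, 0.15, 0.03 and 0.03 on WT 1 to 4. Probe set 1423859_a_at had -0.22, -0.79, -0.17 and -0.02 on BSKO 1 to 4, against 0.08, 0.08, 0.02 and 0.03 on WT 1 to 4. On both, BSKO 2 was lowest and BSKO 4 sat just under the WT arrays, with a gap of 0.0611 on 1423860_at and 0.0444 on 1423859_a_at. The difference on 1423860_at was -0.89 (SE 0.42) with 8 arrays and -0.42 (SE 0.12) without BSKO 2, and on 1423859_a_at -0.35 (SE 0.16) and -0.19 (SE 0.07). None of these passed (limma adjusted p = 0.483 and 0.477 with 8 arrays, 0.130 and 0.194 without BSKO 2).

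Ptgds is made by several non-neuronal cell types, so the markers of those types were set beside it. All 14 measured meningeal and fibroblast genes had a lower mean in BSKO, and the list median was -0.63, -0.57, -0.33 and -0.18 on BSKO 1 to 4, against 0.64, 0.67, 0.14 and 0.06 on WT 1 to 4. Of 9 choroid plexus genes 8 were lower, but the list median ranged from -2.06 on BSKO 4 to 0.67 on BSKO 1, and from -0.05 to 0.08 in WT. BSKO 4, with the lowest choroid plexus median, had the highest Ptgds values of its genotype. For 8 oligodendrocyte genes the list median was -0.13 to 0.10 in BSKO and 0.01 to 0.02 in WT. On centred values no marker has a level, so none can be named as at 0, and the part of these cells in the Ptgds values was not tested.

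Ptges, the inducible prostaglandin E synthase that works with Ptgs2, did not separate the genotypes. On probe set 1449450_at it had 0.00, -0.86, 0.05 and -0.24 on BSKO 1 to 4, against 0.07, 0.03, -0.29 and 0.00 on WT 1 to 4. Without BSKO 2 the difference on this probe set was -0.02 (SE 0.11), against -0.21 (SE 0.20) with it. On 1449449_at the difference was -0.12 (SE 0.15) with 8 arrays and turned to 0.02 (SE 0.08) without BSKO 2. The lower Ptges means in BSKO thus went with that array.

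Ptgis, the prostacyclin synthase, known from endothelium and smooth muscle, overlapped throughout. Its probe set 1448816_at had 0.10, 0.49, -0.10 and -0.46 on BSKO 1 to 4, against 0.35, 0.32, -0.11 and -0.22 on WT 1 to 4. In both genotypes replicates 1 and 2 lay above replicates 3 and 4, by 0.58 in BSKO and 0.50 in WT, and the genotypes differed by -0.07 (SE 0.22, 95% interval -0.58 to 0.43) with 8 arrays and by -0.24 (SE 0.18) without BSKO 2. The median of 9 endothelial markers stayed within -0.10 to 0.01 in BSKO and -0.05 to 0.07 in WT.

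The receptors gave the other large differences. Ptgfr, the receptor for prostaglandin F2alpha, was 2.12-fold lower on probe set 1420349_at, with -0.94, -0.92, -0.29 and -0.56 on BSKO 1 to 4, against 0.46, 0.41, 0.29 and 0.45 on WT 1 to 4. The WT arrays lay close together, and every BSKO array was below them by 0.575 or more. The means were -0.68 ± 0.31 in BSKO and 0.40 ± 0.08 in WT (SD, n = 4 each), a difference of -1.08 (SE 0.16), which missed the threshold with 8 arrays (limma adjusted p = 0.0669). Ptgfr fell in the fit without BSKO 2 (-0.999, SE 0.14, limma adjusted p = 0.0237), where the 7 arrays separated as well. With 8 arrays and a term that split replicates 1 and 2 from replicates 3 and 4 it also passed (limma adjusted p = 0.0420). It did so too after quantile normalization and with array weights (limma adjusted p = 0.0111 and 0.00155). In those settings 84, 678 and 2617 of all 22626 tested probe sets passed. With trend and robust settings, and with the replicate number as a block, it did not pass (limma adjusted p = 0.0740 and 0.232). Nor did it pass without any single array other than BSKO 2 (limma adjusted p = 0.0809 to 0.308).

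On the other probe sets of Ptgfr the genotypes overlapped, and neither passed with 8 arrays or without BSKO 2. With array weights 1453924_a_at did pass as lower (-0.49, limma adjusted p = 0.0185), where 2617 of all tested probe sets passed. On 1453924_a_at the values were -0.62, 0.12, -0.01 and -0.55 on BSKO 1 to 4, against 0.01, -0.14, 0.08 and 0.02 on WT 1 to 4. BSKO 1 and BSKO 4 lay below the WT arrays there, and BSKO 2 above them, with a difference of -0.26 (SE 0.18) with 8 arrays and -0.39 (SE 0.15) without BSKO 2. On 1449828_at the range was -0.01 to 0.23 in BSKO and -0.32 to 0.06 in WT, and the difference was 0.14 (SE 0.12, 95% interval -0.12 to 0.41) with 8 arrays and 0.09 (SE 0.10) without BSKO 2. Averaged over the 3 probe sets, Ptgfr differed by -0.40 (SE 0.11, limma adjusted p = 0.246). Which transcripts each probe set covers is not given in the sources used here.

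Ptger4, the receptor for prostaglandin E2 that raises cyclic AMP, was lower on both probe sets. On 1424208_at the values were -0.21, -0.10, -0.58 and -0.34 on BSKO 1 to 4, against 0.71, 0.55, 0.10 and 0.24 on WT 1 to 4. On 1421073_a_at they were -0.10, -0.27, -0.07 and -0.21 on BSKO 1 to 4, against 0.35, 0.45, 0.44 and 0.07 on WT 1 to 4. The genotypes did not overlap on either probe set, but the nearest arrays were different ones: BSKO 2 and WT 3 on the first, BSKO 3 and WT 4 on the second. The difference was -0.71 (SE 0.17, 95% interval -1.09 to -0.33) on 1424208_at and -0.49 (SE 0.12, 95% interval -0.76 to -0.22) on 1421073_a_at, or 1.63-fold and 1.40-fold lower. Neither passed over all probe sets (limma adjusted p = 0.213 and 0.228), nor without BSKO 2 (-0.78 and -0.45, limma adjusted p = 0.0611 and 0.0812). After quantile normalization, and with array weights, both passed.

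Ptger3, the receptor for prostaglandin E2 that lowers cyclic AMP and takes part in fever, had probe sets that disagreed. On 1450344_a_at the values were -0.27, -2.49, -0.29 and -0.48 on BSKO 1 to 4, against 1.22, 1.13, 0.34 and 0.27 on WT 1 to 4. The WT arrays fell into pairs, with replicates 1 and 2 above replicates 3 and 4 by 0.87, and BSKO 2 lay far below its own group. The difference was -1.62 (SE 0.51, limma adjusted p = 0.330) with 8 arrays and -1.09 (SE 0.25, limma adjusted p = 0.0751) without BSKO 2, and it passed after quantile normalization and with array weights. From replicates 1 and 2 alone it came to -2.55, from replicates 3 and 4 alone to -0.69.

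On the other Ptger3 probe set, 1425251_at, the values were 0.09, 0.91, -0.21 and -0.70 on BSKO 1 to 4, against 0.53, 0.42, -0.09 and -0.22 on WT 1 to 4. The genotypes overlapped, and replicates 1 and 2 were the higher ones in both. BSKO 2 was the highest array on this probe set and the lowest on the other, where the values of the 2 differed by -3.40. On the other 7 arrays that difference was -0.36 to 0.71. The genotype difference on 1425251_at was -0.13 (SE 0.33) with 8 arrays and -0.43 (SE 0.24) without BSKO 2.

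Ptger1, the receptor for prostaglandin E2 linked to calcium, was the 1 gene of the 9 with a higher mean in BSKO. Probe set 1450491_at had -0.14, 0.31, 0.21 and 0.06 on BSKO 1 to 4, against -0.17, -0.06, 0.14 and -0.09 on WT 1 to 4. The genotypes overlapped, with a difference of 0.15 (SE 0.13, 95% interval -0.14 to 0.44) with 8 arrays and 0.09 (SE 0.11) without BSKO 2.

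**Figure D3:**
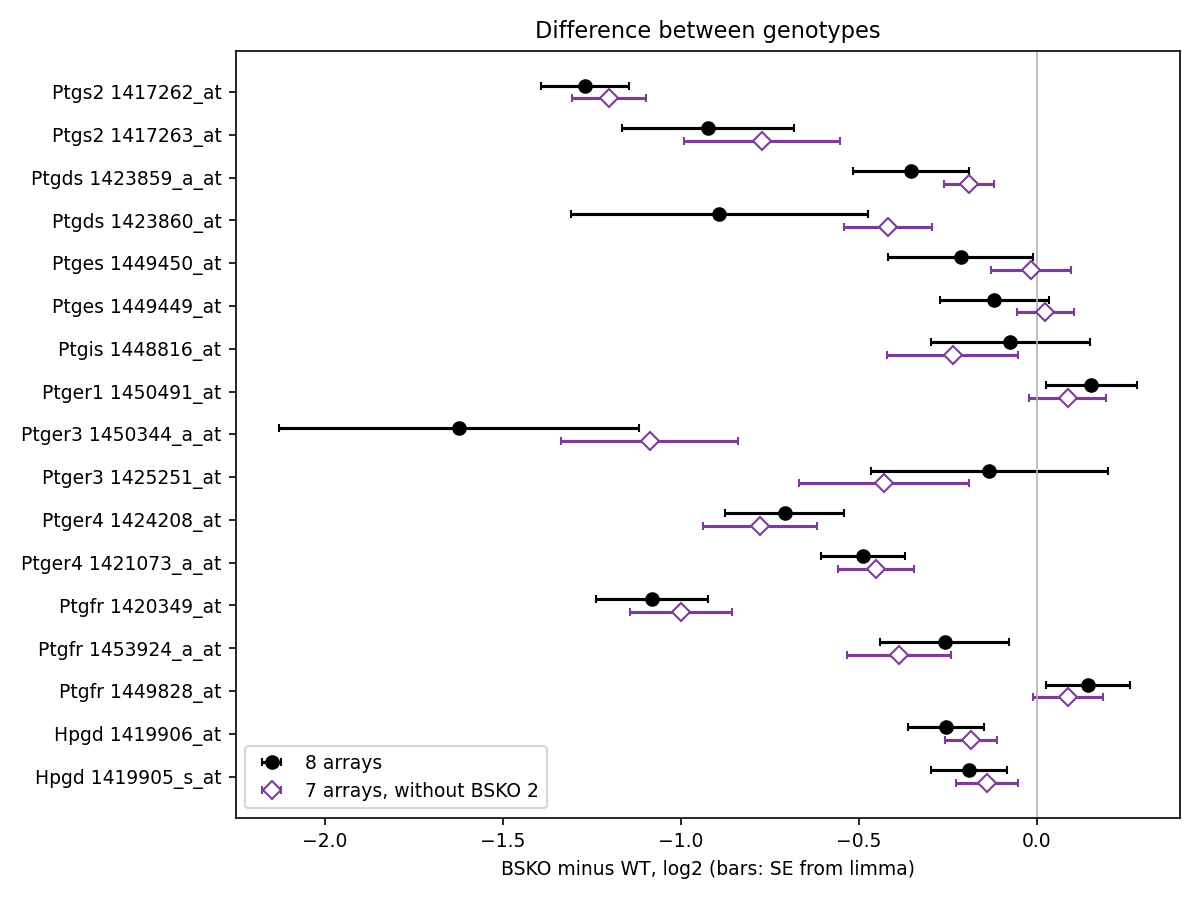
BSKO minus WT on the log2 scale for the 17 probe sets, with the SE from limma. Filled circles are 8 arrays and open diamonds 7 arrays without BSKO 2; leaving out that array moved Ptgds 1423860_at (-0.89 to -0.42) and Ptger3 1450344_a_at (-1.62 to -1.09) the most, and Ptgs2 1417262_at (-1.27 to -1.20) little.

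Hpgd, the dehydrogenase that inactivates prostaglandins, differed by little. On probe set 1419906_at it had -0.04, -0.39, -0.24 and -0.06 on BSKO 1 to 4, against 0.06, 0.13, 0.04 and 0.05 on WT 1 to 4. The genotypes did not overlap, with a gap of 0.0870. The difference was -0.25 (SE 0.11, limma adjusted p = 0.448), and -0.19 on 1419905_s_at (SE 0.11), where BSKO 4 overlapped the WT arrays. Without BSKO 2 the differences were -0.18 (SE 0.07) and -0.14 (SE 0.09).

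The arrays on which the receptors were high and low were set beside region markers. The median of 7 dentate gyrus markers was -0.08, -0.72, -0.20 and -0.29 on BSKO 1 to 4, against 0.70, 0.73, 0.04 and 0.01 on WT 1 to 4. All 7 had a lower mean in BSKO. The median of 7 markers of striatal projection neurons was 0.06, 0.14, 1.12 and 1.03 on BSKO 1 to 4, against -1.94, -1.79, 0.01 and -0.08 on WT 1 to 4, and all 7 had a higher mean in BSKO. WT 1 and 2, the arrays highest for Ptger3 1450344_a_at and Ptger4 1424208_at, were thus also the highest for dentate gyrus and meningeal markers and the lowest for striatal ones. For Ptgfr 1420349_at the WT arrays showed no such step, and for Ptgs2 1417262_at WT 1 and 2 lay below WT 3 and 4. WT 1 and 2 minus WT 3 and 4 was 0.07 for Ptgfr and -0.22 for Ptgs2, against 0.87 for Ptger3 and 0.46 for Ptger4. On the other Ptger4 probe set, 1421073_a_at, it was 0.15, and on the other Ptgs2 probe set, 1417263_at, -0.01. The BSKO arrays were split for both: BSKO 1 and 2 minus BSKO 3 and 4 was -0.51 for Ptgfr 1420349_at and -0.31 for Ptgs2 1417262_at. That BSKO value was -0.89 for Ptgs2 1417263_at and 0.31 for Ptger4 1424208_at. For Ptger3 1450344_a_at it was -0.99, which came from BSKO 2 (-2.49) and was no split into pairs. BSKO 1 (-0.27) lay above BSKO 3 (-0.29) and BSKO 4 (-0.48) there. For 10 markers of cortical and hippocampal excitatory neurons, the cells in which Ptgs2 is known, the median was -0.29, -0.33, 0.33 and -0.09 on BSKO 1 to 4, against -0.08, 0.09, 0.09 and 0.08 on WT 1 to 4, and 6 of 10 had a lower mean in BSKO. BSKO 3, with the highest such median, also had the highest Ptgs2 values of its genotype on both probe sets, still below every WT array. The part of region content in these differences was not tested.

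**Figure D4:**
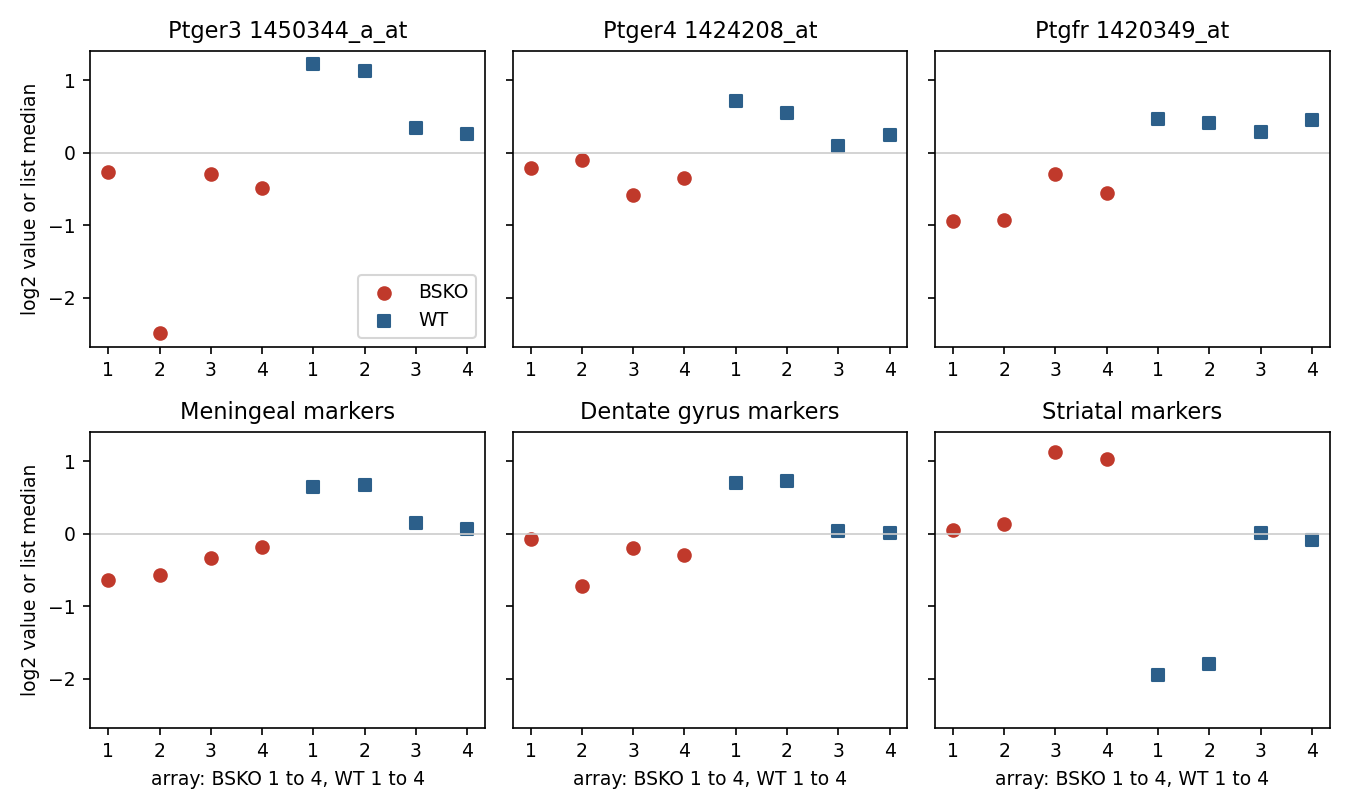
Each array (horizontal axis, BSKO 1 to 4 then WT 1 to 4) for 3 receptor probe sets (log2 values, upper row) and for the list medians of meningeal, dentate gyrus and striatal markers (lower row). WT 1 and 2 stand above WT 3 and 4 for Ptger3 1450344_a_at, Ptger4 1424208_at and the meningeal and dentate gyrus markers. For the striatal markers WT 1 and 2 stand below WT 3 and 4, while the WT arrays of Ptgfr 1420349_at lie within 0.29 to 0.46.

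The other measured eicosanoid genes were lower in BSKO about as often as higher. From a list of 52 further genes of arachidonate release, prostanoid and leukotriene synthesis, reception, transport and breakdown, 42 were measured on 59 probe sets, of which 31 were lower and 28 higher in BSKO. Their median difference was 0.00, against 0.02 over all tested probe sets. None of the 59 passed in limma with 8 arrays. At an unadjusted p under 0.05, 9 of the 59 were lower, where all tested probe sets gave 5.22%, and 2 were higher. In either direction that made 11 of 59, where all tested gave 10.8%. Without BSKO 2, 1 passed, as higher in BSKO, against 0.495% of all tested. The groups did not overlap for 7 of the 59 with BSKO lower, where all tested probe sets gave 6.66%, and for 3 with BSKO higher, where all gave 5.67%.

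Upstream of the cyclooxygenases, Pla2g4a, the cytosolic phospholipase that releases arachidonic acid, had -0.11, -0.62, -0.41 and -0.06 on BSKO 1 to 4, against 0.42, 0.27, 0.06 and 0.27 on WT 1 to 4. It was lower on every BSKO array, with a difference of -0.55 (SE 0.15, limma adjusted p = 0.277), and of -0.44 without BSKO 2. Mgll, the monoacylglycerol lipase that breaks down the endocannabinoid 2-arachidonoylglycerol and yields arachidonic acid in brain, was the gene that passed without BSKO 2. On probe set 1450391_a_at Mgll had 0.14, 0.16, 0.41 and 0.39 on BSKO 1 to 4, against -0.14, -0.23, -0.14 and -0.14 on WT 1 to 4. Mgll thus lay higher on every BSKO array, by 0.44 with 8 arrays (SE 0.10, limma adjusted p = 0.211), and rose by 0.48 without BSKO 2 (SE 0.08, limma adjusted p = 0.0401). Its other probe sets differed by 0.17 to 0.57 with 8 arrays and did not pass.

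Anxa1, annexin A1, a glucocorticoid-induced protein known to limit phospholipase activity, had -0.52, -1.48, -0.28 and -0.67 on BSKO 1 to 4, against 1.45, 1.38, 0.28 and 0.35 on WT 1 to 4. WT 1 and 2 were 1.10 above WT 3 and 4, the same pairs as for Ptger3, and the genotypes differed by -1.60 (SE 0.35, limma adjusted p = 0.182), or by -1.36 without BSKO 2. Slco3a1, an organic anion transporter that carries prostaglandins, was lower without overlap on all 3 of its probe sets, with differences of -0.56, -0.55 and -0.24 with 8 arrays (limma adjusted p = 0.260, 0.402 and 0.414) and of -0.45, -0.36 and -0.28 without BSKO 2.

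Activity-induced genes were examined because Ptgs2 belongs to them in cortex and hippocampus. Of 30 listed, 28 were measured on 41 probe sets, 20 lower and 21 higher in BSKO. Their median difference was 0.10 with 8 arrays and -0.01 without BSKO 2. None of the 41 passed in limma with 8 arrays, and 6 lower and 2 higher had an unadjusted p under 0.05, where all tested probe sets gave 5.22% lower and 10.8% in either direction. The groups did not overlap for 5 with BSKO lower (all tested, 6.66%) and 2 with BSKO higher (all tested, 5.67%). Bdnf, a neurotrophin, had -0.66, -0.74, -0.37 and -0.33 on BSKO 1 to 4, against 0.39, 0.33, 0.49 and 0.46 on WT 1 to 4 on probe set 1422169_a_at. That array pattern is close to the one of Ptgs2, with a difference of -0.95 (SE 0.12, limma adjusted p = 0.0652), and Bdnf fell on this probe set in the fit without BSKO 2 (-0.87, limma adjusted p = 0.0157). The other Bdnf probe set, 1422168_a_at, did not pass, at -1.05 (SE 0.41, limma adjusted p = 0.428) with 8 arrays and -0.59 (SE 0.13, limma adjusted p = 0.0738) without BSKO 2.

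Jun, an AP-1 transcription factor, fell in the fit without BSKO 2 on both probe sets, with differences of -0.68 on 1448694_at (limma adjusted p = 0.0408) and -0.72 on 1417409_at (limma adjusted p = 0.0361). With 8 arrays Jun differed by -0.76 (SE 0.14) and -0.47 (SE 0.24) and did not pass. Inhba, the activin A subunit, lay on the other side, at 0.10, 0.46, 1.11 and 1.00 on BSKO 1 to 4, against -0.68, -1.06, -0.10 and -0.12 on WT 1 to 4 (difference 1.16, SE 0.29, limma adjusted p = 0.242). Per1, a clock gene, was higher on every BSKO array by 0.35 (SE 0.09, limma adjusted p = 0.257).

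The genes most like Ptgs2 were ranked by Pearson correlation with the mean of its probe sets over the 8 arrays, which share the genotype split, so that any gene with a clean separation ranks high. The 5 highest were Lpgat1, a lysophospholipid acyltransferase (r = 0.991), Bdnf (0.989), Tspan8, a tetraspanin (0.988), Ptgfr on 1420349_at (0.988) and Spo11, known from meiotic recombination (0.987). Their sizes were unlike: Tspan8 differed by -1.40, Ptgfr by -1.08, Spo11 by -1.02, Bdnf by -0.95 and Lpgat1 by -0.25. Over the 7 arrays without BSKO 2 the 5 highest were Epha6, an ephrin receptor (r = 0.997), Sptlc1, a subunit of serine palmitoyltransferase (0.995), Lpgat1 (0.990), Spo11 (0.989) and Tbl1xr1, a part of nuclear corepressor complexes (0.989). Lpgat1 and Spo11 were in both sets of 5. Ptgfr is thus the member whose arrays ran most like those of Ptgs2 with 8 arrays, down to the pairs, since BSKO 1 and 2 were the lowest for both.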

How the data were processed

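The authors deposited log2 values made with RMA, per the submitters' processing notes, whose version is not given in the sources used here. For all but 1 of the 22690 probe sets the 8 values had their median at 0 (tolerance 1e-05), a centring that no label records. The 64 control probe sets were left out and 22626 were tested without a filter, since centred values carry no brightness. Gene symbols came from the platform annotation, updated by gene number to RefSeq (assembly GRCm38.p6): 20380 probe sets had 1 symbol, 691 several and 1555 none, 20351 matched and 0 changed. BSKO and WT entered limma (version 3.58.1, R 4.3.3; lmFit, then eBayes; no covariate, two-sided, Benjamini-Hochberg over all tested probe sets, threshold 0.05), and the code was tested on simulated data. For list medians per array, a gene's probe sets were averaged first. The number of arrays limits the precision. Members, lists and tests were chosen with earlier results of these data known. Named genes are all members, then, per further list, the genes passing with 8 arrays or without BSKO 2, with others by smallest p up to 4 in all, and the 5 genes most like Ptgs2. Alternatives were quantile normalization, array centring, dropping probe sets with the suffix _a_at, _s_at or _x_at, eBayes with trend and robust options, and weights per array. Further ones were the replicate number as a block, a term for replicates 1 and 2 against 3 and 4, leaving out each array, 1 value per gene and a threshold of 0.10. Figures were drawn with matplotlib 3.10.9.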

Additional observations from a re-analysis of the deposited data

Results flagged for a closer look

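In 84 groups of 4 arrays (the named probe sets and the marker medians, each genotype apart), 6 had 1 array so far from its nearest neighbour that the gap passed Dixon's 95% critical share of the whole range. Chance gives about 1 in 20. BSKO 2 was that array for 4 of the 6. Ptger3 on 1450344_a_at had -2.49 on BSKO 2, against -0.48 to -0.27 on the other BSKO arrays. Ptgfr on 1449828_at had 0.23 on BSKO 2, against -0.01 to 0.00. Bdnf on 1422168_a_at had -2.14 there, against -0.40 to -0.09, and Jun on 1448694_at -0.58, against -0.28 to -0.22. Among WT arrays, Mgll on 1450391_a_at had -0.23 on WT 2, against -0.14 on the others, and the median of cortical and hippocampal excitatory neuron markers was -0.075 on WT 1, against 0.08 to 0.09.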

How the results depend on the processing

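Over 32 named probe sets and 533 comparisons with an alternative, the direction was kept in 526. That count includes alternatives that leave the difference itself unchanged and so could not turn its sign. These were the trend and robust options, the replicate block and the term for replicates 1 and 2 against 3 and 4. Dropping probe sets by suffix and the threshold of 0.10 were the others. The limma count of passing probe sets among all tested, 7 with 8 arrays, was 678 after quantile normalization, 108 with trend and robust settings, 2617 with array weights, 84 when a term split replicates 1 and 2 from replicates 3 and 4, 66 at a threshold of 0.10 and 0 (without WT 4, 1576 at an unadjusted p under 0.05) to 369 (without BSKO 2) when 1 array was left out. Among the members it was 1, and 5, 7, 2 and 2 after quantile normalization, with array weights, with that term and at 0.10 (Ptgs2 1417262_at in each, joined by Ptgfr 1420349_at in each, and by Ptger3 1450344_a_at and both Ptger4 probe sets after quantile normalization and with array weights); 0 to 2 without 1 array; and 0 with 1 value per gene, where Ptgs2 differed by -1.10. Other eicosanoid genes gave 0, and 4, 11 and 1 after quantile normalization, with array weights and with that term, and 0 to 1 without 1 array. Activity-induced genes gave 0, and 4, 2, 11, 2 and 1 after quantile normalization, with trend and robust settings, with array weights, with that term and at 0.10, and 0 to 3 without 1 array. Ptgs2 1417262_at ran from -1.33 to -1.20 without 1 array, and 1417263_at passed with array weights (-0.66, limma adjusted p = 0.0306). So did Ptgfr 1453924_a_at with array weights (-0.49, limma adjusted p = 0.0185). With array weights the BSKO 2 array counted for 0.0456 and BSKO 4 for 3.69. With the replicate number as a block, 0 of all tested probe sets (2121 at an unadjusted p under 0.05) and 0 of the members (6) passed in limma, and Ptgs2 1417262_at differed by -1.27 (limma adjusted p = 0.162). Same-numbered arrays correlated in their deviations from the group means by 0.0858, 0.0562, 0.140 and 0.129 for numbers 1 to 4. Arrays of unlike number correlated as highly, by 0.0878 for BSKO 2 and WT 1 and 0.165 for BSKO 4 and WT 3, so the numbers were not taken to pair the animals. Every correlation within replicates 1 and 2 or within 3 and 4 was positive (0.0307 to 0.165). Every one across them was negative (-0.147 to -0.0374), a split that the main fit holds no term for.

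The sign turned for small differences: Ptges 1449449_at (-0.19 to 0.0229), Ptgis (-0.24 to 0.0813), Ptger3 1425251_at (-0.43 to 0.11) and Mgll 1453836_a_at (-0.0483 to 0.57) when 1 array was left out, and Ptgfr 1449828_at when replaced by the mean of its gene (-0.40). The cause was not tested. The planned filter on dim probe sets was left out, since brightness cannot be read from centred values.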
